A study of Rattus norvegicus with 6 samples.

Results

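Enterocytes are the absorptive cells that line the colon, and here the enterocyte nuclei of rats given the melanocortin agonist PL8177 after a chemical injury of the colon were compared with those of rats given placebo capsules after the same injury. The nuclei were those that the authors had labelled enterocytes: 3359 of PL8177 rats and 2959 of placebo rats, together 6318 of the 9800 enterocyte and T cell nuclei of the series. The source was flash-frozen colon of male Wistar rats, measured by single nuclei RNA sequencing. Both groups had drunk 5% dextran sulfate sodium (DSS), which damages the colon epithelium, for 3 days. They then received polymer capsules by mouth 2 times a day for 4 days, either with 50 µg PL8177, a selective agonist of the melanocortin 1 receptor, or without drug. Sham rats had neither DSS nor capsules, and their 2464 enterocyte nuclei are given beside the comparison as levels only. Each nucleus name starts with a tag, and the 3 tags per treatment were read as 3 libraries, 1 per rat: GR41, GR43 and GR44 for PL8177, GR22, GR23 and GR24 for placebo, and GR12, GR13 and GR15 for sham. Values of 3 libraries are always given in this order. The labels do not list the rats, so this reading is an assumption, and if it is wrong the p-values measure a technical spread.

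The enterocyte faces the gut content with a brush border of actin-filled microvilli, covered by membrane-bound mucins, and is joined to its neighbours by tight and adherens junctions. Surface colonocytes absorb sodium, chloride and water, while cells deeper in the crypt secrete chloride and bicarbonate through the channel Cftr. The melanocortin 1 receptor couples to the stimulatory G protein, which raises cAMP and, through protein kinase A, activates the transcription factor CREB at cAMP response elements. No gene named Mc1r is among the 17388 genes counted here, so the level of the receptor's own gene cannot be given.

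RNA molecules were counted by their unique molecular identifiers (UMIs), and UMIs were summed per library over 17388 genes. The sums ran from 769765 to 4123319 UMIs in PL8177 and from 319125 to 3953079 in placebo libraries, and placebo library GR23 was the thinnest, with 304 nuclei and the lowest median depth of the 6, 612 UMIs per nucleus. Between libraries of PL8177 and placebo, no pair shared more than 1 nucleus barcode. Levels are UMIs per 10000 UMIs, with library totals scaled by the TMM factors of edgeR. Of a summed level, a smaller part of nuclei with a gene and less RNA of it per nucleus cannot be told apart. Summed enterocyte markers, such as Slc26a3 and Cdh17, stood at 252, 267 and 350.1 in PL8177, 250.4, 173 and 197 in placebo and 235, 529.7 and 280.0 in sham libraries. No marker list of another cell type exceeded 7.32 in any PL8177 or placebo library, so the nuclei carried the markers of their label.

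The study's thresholds were 0.05 for the adjusted p and 0.5 for the size of the log2 fold change. The study applied them in the MAST test with nuclei as the unit, so its counts of genes are not comparable with those here. With libraries as the unit, no gene passed them in edgeR's quasi-likelihood test (0 of 9424 genes tested, or 0%, with a lowest adjusted p of 0.128). Without adjustment, 871 genes (9.24%) were below 0.05, of which 518 (5.5%) were higher and 353 (3.75%) lower in PL8177 than in placebo nuclei. DESeq2 with the same thresholds called 63 genes (0.669%), 42 higher (0.446%) and 21 lower (0.223%), and limma voom with sample quality weights called 8 (0.0849%), all 8 among the 63. For 1619 genes (17.2%) the 3 PL8177 and the 3 placebo libraries did not overlap, 852 higher (9.04%) and 767 lower (8.14%). The smallest two-sided p that an exact permutation test of 3 against 3 libraries can give is 0.1, and every gene without overlap has it. Of the 63 genes called by DESeq2, 61 were without overlap, so a lack of overlap adds nothing to a call. The calls of DESeq2 rested on all 6 libraries: without 1 of them, the count was 14 without GR41, 24 without GR43, 27 without GR44, 52 without GR22, 31 without GR23 and 11 without GR24. Of the 63 genes, 5 were called in all 6 of these runs: LOC100361087, Ceacam1, Tesk2 and Kcnk5, all higher, and Cftr, lower, while 17 were called in none of them. In the text that follows, a gene is said to be called where DESeq2 called it, fold changes are log2 values of PL8177 minus placebo from edgeR with a standard error, and no edgeR adjusted p was below 0.128. The standard error is not reported by edgeR. It was derived as the absolute log2 fold change divided by the square root of the F statistic of the quasi-likelihood test.

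**Figure D1:**
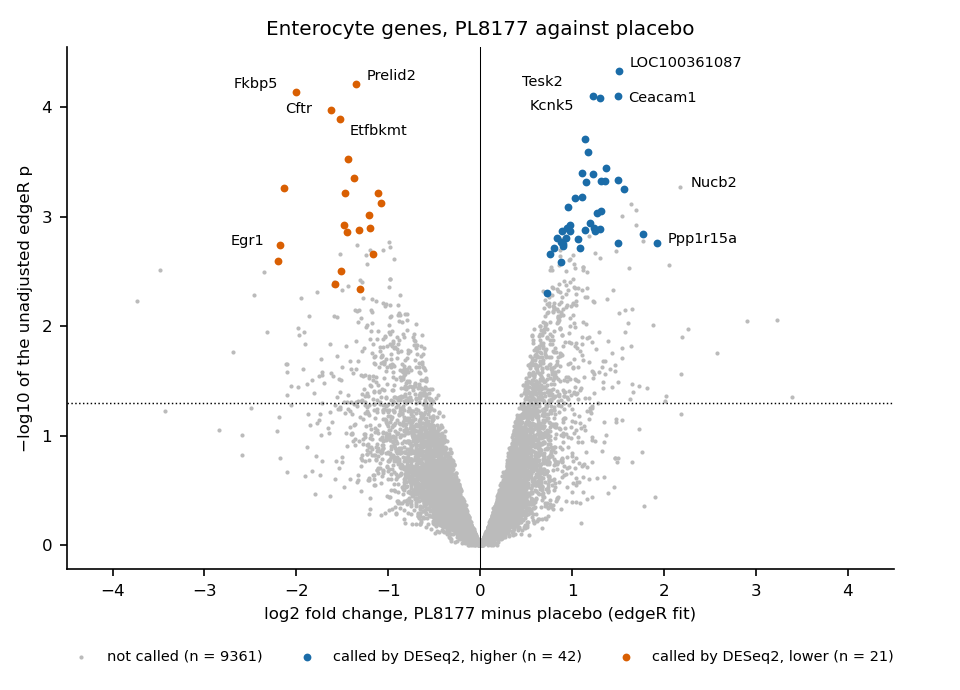
Each point is 1 of 9424 genes, with the log2 fold change of PL8177 minus placebo enterocyte nuclei from edgeR on the horizontal axis and −log10 of its unadjusted p on the vertical axis; the dotted line marks an unadjusted edgeR p of 0.05. Coloured points are the 42 higher and 21 lower genes called by DESeq2, led by LOC100361087, Ceacam1, Tesk2 and Kcnk5 on the right and Prelid2, Fkbp5 and Cftr on the left.

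Fold changes moved with abundance. From the lowest to the highest abundance quintile, the median log2 fold change was -0.26, -0.17, -0.04, 0.07 and 0.19, against -0.01 over all genes. The share of genes higher at an unadjusted p below 0.05 was 0.955% in the lowest and 13.5% in the highest quintile, and that of lower genes was 3.18% and 2.07%. Since genes of the epithelial surface are abundant in these nuclei, their counts are read below against the top abundance quintile as well as against all genes.

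Ceacam1, an adhesion glycoprotein of the apical epithelial surface, was 2.83-fold higher in PL8177 than in placebo nuclei. Its level was 3.56, 3.95 and 2.41 in PL8177, 1.31, 1.04 and 1.15 in placebo and 4.03, 3.93 and 2.56 in sham libraries. Every PL8177 library lay above every placebo library and within or near the sham range (log2 fold change 1.49 ± 0.26, DESeq2 adjusted p = 0.000291, edgeR adjusted p = 0.128). Tesk2, a kinase of the actin-severing protein cofilin, stood at 12.5, 10.2 and 12.3 in PL8177, 4.82, 5.44 and 4.74 in placebo and 11.2, 9.77 and 8.34 in sham libraries, with all 3 placebo libraries lowest (log2 fold change 1.22 ± 0.21, DESeq2 adjusted p = 6.27e-05). Kcnk5 encodes TASK-2, a background potassium channel of transporting epithelia. Its PL8177 levels of 9.33, 9.14 and 14 lay above the placebo levels of 4.18, 4.43 and 4.51 and also above the sham levels of 6.64, 7.33 and 6.07 (log2 fold change 1.31 ± 0.23, DESeq2 adjusted p = 0.00023). LOC100361087, a locus without a gene name in the files, had the smallest p of all genes, with 7.09, 9.88 and 9.98 in PL8177, 2.58, 3.1 and 3.8 in placebo and 7.27, 5.73 and 4.97 in sham libraries (log2 fold change 1.51 ± 0.25). The last of the 5 genes, Cftr, went the other way and is described with ion transport.

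The promoters of Ceacam1 and Tesk2 are shown because both genes were called in every run and both hold CACGTG, the core letters of the E-box, in the 250 bases before the start of the gene. The sequences are those of RefSeq on the build GRCr8, written in the direction of transcription, with the motif in capitals. The Ceacam1 window is chr1:90187793-90188042, minus strand, and that of Tesk2 is chr5:135421434-135421683, plus strand.
Ceacam1: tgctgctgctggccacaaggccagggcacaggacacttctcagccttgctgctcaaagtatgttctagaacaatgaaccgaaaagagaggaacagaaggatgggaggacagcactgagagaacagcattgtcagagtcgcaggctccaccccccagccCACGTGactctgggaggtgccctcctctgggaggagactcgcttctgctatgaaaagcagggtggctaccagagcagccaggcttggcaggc
Tesk2: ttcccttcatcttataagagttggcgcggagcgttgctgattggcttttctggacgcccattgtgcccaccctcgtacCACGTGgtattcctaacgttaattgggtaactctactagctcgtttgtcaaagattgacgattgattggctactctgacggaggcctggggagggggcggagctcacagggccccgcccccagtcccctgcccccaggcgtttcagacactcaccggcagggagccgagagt
The motif starts 92 bases before the start of Ceacam1 and 172 bases before that of Tesk2; in Kcnk5 it lies 39 bases after the start. CACGTG reads the same on both strands, and windows of 300 bases (250 before to 50 after the start) of 7 of 32 higher and 1 of 14 lower called genes with a RefSeq promoter held it, against 9.53% of the 7429 promoters of tested genes. A match describes the letters only.

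**Figure D2:**
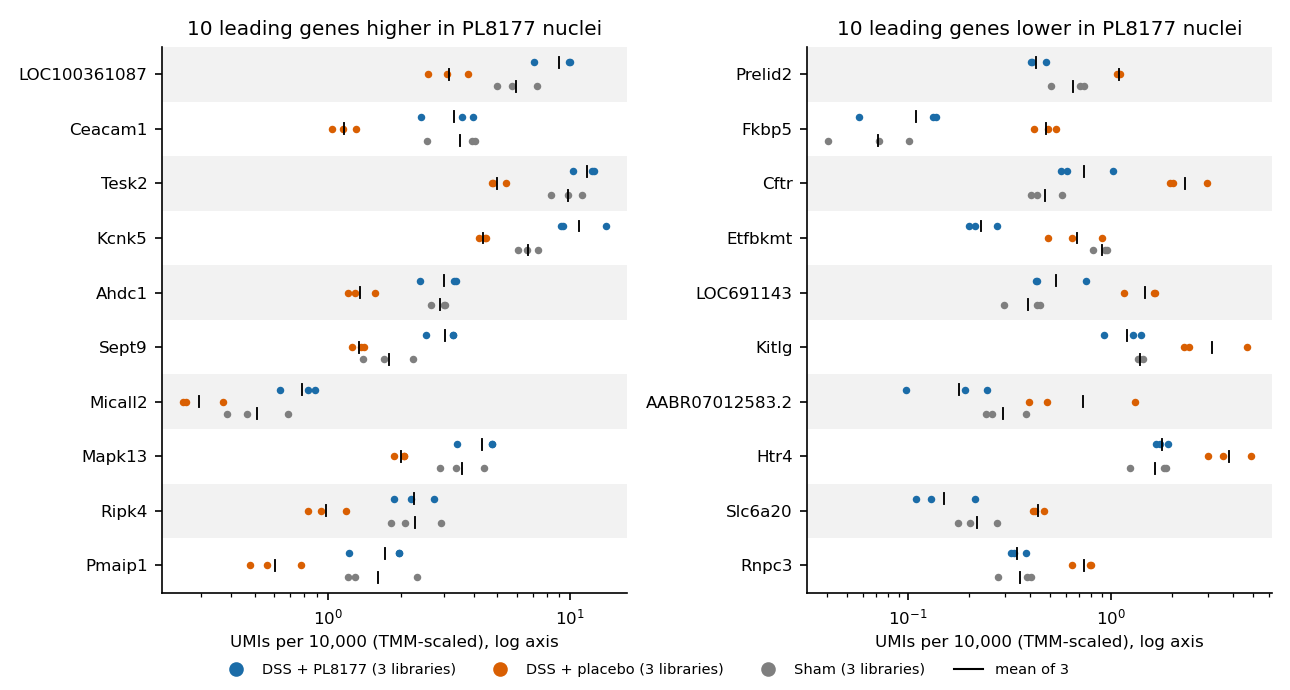
Level of the 10 genes per direction with the smallest edgeR p among genes with an absolute log2 fold change above 0.5 whose PL8177 and placebo libraries did not overlap, as UMIs per 10000 on a log axis. Points are the 3 libraries of each treatment and black ticks their means; Ceacam1 lay at 3.56, 3.95 and 2.41 in PL8177 and 1.31, 1.04 and 1.15 in placebo libraries, and Fkbp5 at 0.138, 0.133 and 0.0578 and 0.418, 0.536 and 0.49.

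Among the other leading genes higher in PL8177 nuclei were genes of the cytoskeleton and kinases. Sept9, a filament-forming septin, was at 3.28, 2.54 and 3.29 in PL8177 and 1.37, 1.41 and 1.26 in placebo libraries, and at 2.25, 1.7 and 1.4 in sham libraries (log2 fold change 1.17 ± 0.23, called). Micall2, an effector of the small GTPase Rab13 at junctions, was at 0.89, 0.827 and 0.635 against 0.37, 0.254 and 0.261 (log2 fold change 1.37 ± 0.28, called). Ripk4, a kinase of epithelial differentiation, was at 2.19, 1.88 and 2.73 against 0.936, 1.18 and 0.828, with sham libraries at 2.09, 2.92 and 1.83 (log2 fold change 1.22 ± 0.26, called). The leading genes were picked for PL8177 and placebo libraries that did not overlap, so that separation is no result about them. For Ripk4 the sham libraries overlapped those of PL8177 and lay above those of placebo. Mapk13, the p38 delta kinase, gave 1.11 ± 0.23, the DNA-binding protein Ahdc1 1.14 ± 0.22, the membrane protein Mpzl3 1.35 ± 0.29 and the calcium-dependent membrane-binding copine Cpne2 1.56 ± 0.34, all called. Of these genes, Sept9 and Ahdc1 were called in 4 of the 6 runs that left out a library, Micall2 in 3, and Ripk4, Mapk13, Mpzl3 and Cpne2 in 2. Nucb2, the precursor of nesfatin, had the largest fold change of the 15 genes (2.17 ± 0.47) but low levels of 0.281, 0.158 and 0.116 in PL8177 and 0.0406, 0.0564 and 0.0381 in placebo libraries, and DESeq2 gave it no adjusted p.

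Among the leading lower genes, Prelid2, a protein with the PRELI domain of mitochondrial lipid carriers, was at 0.408, 0.405 and 0.477 in PL8177 and 1.11, 1.1 and 1.07 in placebo libraries (log2 fold change -1.35 ± 0.23, DESeq2 adjusted p = 0.000748). Its sham levels of 0.702, 0.736 and 0.508 lay between, so the PL8177 libraries of Prelid2 were below those of both other groups. Kitlg, the ligand of the receptor KIT, was at 1.29, 1.41 and 0.924 in PL8177, 2.31, 2.43 and 4.69 in placebo and 1.36, 1.37 and 1.44 in sham libraries (log2 fold change -1.37 ± 0.29, DESeq2 adjusted p = 0.00742, called in 5 of the 6 runs). The PL8177 and sham libraries of Kitlg lay together below all placebo libraries. Htr4, a serotonin receptor that couples to the stimulatory G protein, was at 1.75, 1.9 and 1.68 in PL8177, 3.03, 3.58 and 4.9 in placebo and 1.82, 1.24 and 1.87 in sham libraries (log2 fold change -1.11 ± 0.24, called). For Htr4 too, the placebo libraries were the high ones and the PL8177 libraries lay near sham. Etfbkmt, a methyltransferase of an electron transfer flavoprotein, differed in this respect: its PL8177 levels of 0.201, 0.215 and 0.274 were below those of placebo, 0.49, 0.903 and 0.643, and those of sham, 0.814, 0.939 and 0.954 (log2 fold change -1.53 ± 0.28, called). The imino acid transporter Slc6a20 gave -1.47 ± 0.32, the ferrireductase Steap3 -1.48 ± 0.35, the galactosyltransferase B3galt2 -1.20 ± 0.29 and the minor spliceosome protein Rnpc3 -1.08 ± 0.25, all called. Prelid2 and Etfbkmt were called in 3 of the 6 runs, Htr4 and B3galt2 in 2, and Slc6a20, Steap3 and Rnpc3 in none.

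Ion and water transport held called genes in both directions, Cftr and Slc4a4 of chloride and bicarbonate secretion lower, and Kcnk5 and the sodium channel subunit Scnn1a higher in PL8177 nuclei. Of 30 members tested, 6 (20%) were higher and 3 (10%) lower at an unadjusted p below 0.05, against 13.5% and 2.07% in the top abundance quintile, to which 24 of the 30 belong; 2 were called in each direction. The list median was 0.17, 0.054 without GR23 and 0.34 without GR22. The 3 lower members were Cftr, Slc4a4 and Slc12a2. Cftr, the cAMP-activated chloride channel, was at 0.569, 1.03 and 0.607 in PL8177, 2.02, 2.99 and 1.95 in placebo and 0.577, 0.431 and 0.406 in sham libraries. It was 3.16-fold lower in PL8177 than in placebo nuclei, and the placebo libraries stood above all others (log2 fold change -1.62 ± 0.29, DESeq2 adjusted p = 0.000748). Slc4a4, the basolateral sodium bicarbonate cotransporter, was at 0.637, 1.68 and 0.708 in PL8177 and 3.05, 4.71 and 1.62 in placebo libraries; it was called, and called in 2 of the 6 runs, although GR43 and GR24 overlapped (log2 fold change -1.58 ± 0.45, DESeq2 adjusted p = 0.0426). Slc12a2, the basolateral sodium, potassium and chloride cotransporter that loads the cell with chloride, was at 0.287, 0.496 and 0.505 in PL8177 and 0.475, 0.846 and 1.03 in placebo libraries, which overlapped, and was not called (-0.86 ± 0.37). Scnn1a, the alpha subunit of the epithelial sodium channel, was at 4.45, 4.06 and 5.16 in PL8177, 2.32, 2.06 and 2.25 in placebo and 3.62, 5.73 and 5.58 in sham libraries (log2 fold change 1.04 ± 0.23, DESeq2 adjusted p = 0.0195). The placebo libraries of Scnn1a were below all others, whereas it was called in none of the 6 runs that left out a library. Clca4, a regulator of calcium-activated chloride channels, was at 40, 21.3 and 11.3 in PL8177 and 11.1, 11.3 and 8.68 in placebo libraries, with GR41 far above the rest (1.23 ± 0.37, not called). Trpv6, the apical calcium channel, was at 2.15, 6.35 and 9.01 against 2.09, 1.61 and 3.75 and overlapped (1.21 ± 0.48, not called). Slc26a3, the apical chloride and bicarbonate exchanger and the most abundant member, was at 82.2, 86.9 and 134 in PL8177 and 84.6, 55.3 and 60 in placebo libraries, also with overlap. The water channel Aqp8 (0.81 ± 0.46) and the proton pump subunit Atp12a (0.73 ± 0.49) were not called.

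**Figure D3:**
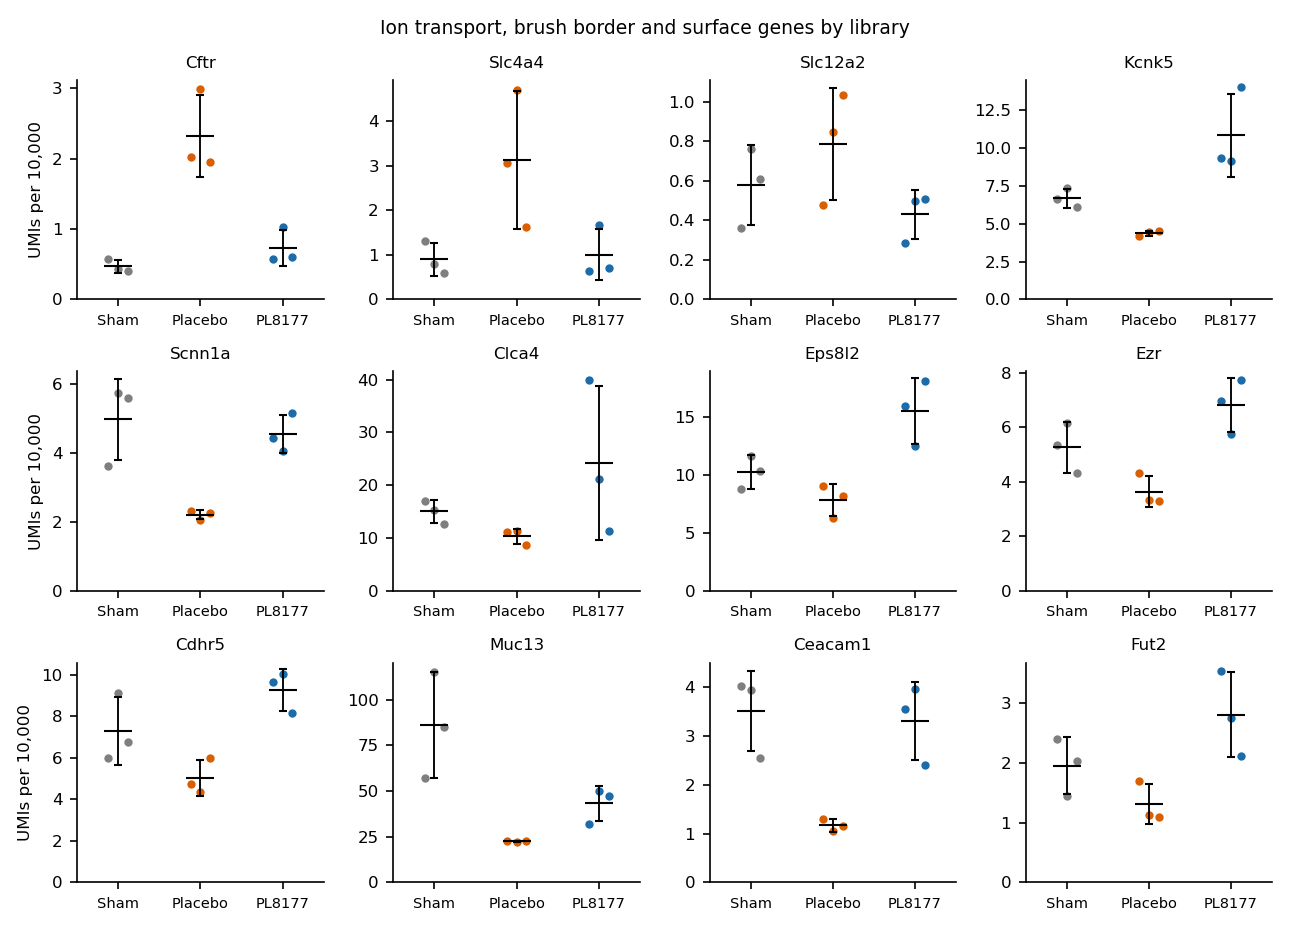
Level of 12 enterocyte genes in UMIs per 10000 on linear axes from 0; points are the 3 libraries of each treatment, bars the mean ± SD. Cftr is higher in all 3 placebo libraries than in any other library. Slc4a4 has its highest mean in placebo, but PL8177 library GR43 lies above placebo library GR24. Kcnk5, Scnn1a, Eps8l2, Ezr, Cdhr5, Muc13, Ceacam1 and Fut2 are lower in all 3 placebo libraries than in any PL8177 library.

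The brush border list held more higher than lower genes. Of 30 members, 8 (26.7%) were higher and 1 lower at an unadjusted p below 0.05, against 13.5% and 2.07% in the top abundance quintile, to which 22 of the 30 belong; 4 were called, all higher, and the median was 0.40. The count of higher members was 5 of 30 without GR43, 5 of 31 without GR24 and 6 of 31 without the thin library GR23, where the median was 0.31; with nuclei thinned to 300 UMIs each, 7 of 27 were higher and the median was 0.40. Eps8l2, a relative of the actin-capping protein Eps8, was at 15.9, 12.4 and 18.1 in PL8177, 9.02, 6.32 and 8.21 in placebo and 8.73, 11.6 and 10.4 in sham libraries (log2 fold change 0.97 ± 0.24, DESeq2 adjusted p = 0.0243). Ezr encodes ezrin, which ties the microvillar membrane to actin, and was at 6.95, 5.76 and 7.73 in PL8177 and 4.3, 3.33 and 3.28 in placebo libraries (log2 fold change 0.90 ± 0.23, DESeq2 adjusted p = 0.0413). Cdhr5, a cadherin that links the tips of microvilli, was at 9.64, 10 and 8.15 against 4.76, 4.34 and 5.99 (log2 fold change 0.88 ± 0.23, DESeq2 adjusted p = 0.049). In Eps8l2, Ezr and Cdhr5, which were named because they were called, no PL8177 library overlapped a placebo library. Of the 30 members, 9 were higher and 2 lower without overlap, against 9.04% and 8.14% of all genes. In the top abundance quintile, 20.5% were higher without overlap. Shroom3, which organizes apical actin, was at 24.3, 23 and 22.2 against 15.5, 14.9 and 11.6 (log2 fold change 0.73 ± 0.21, DESeq2 adjusted p = 0.049), with PL8177 libraries near the sham levels of 23.9, 20.1 and 21.8. Mgam, the disaccharidase maltase-glucoamylase, was the lower member, at 0.655, 0.487 and 0.39 against 0.724, 0.987 and 0.762 (-0.65 ± 0.27, not called). These calls were at the edge of the threshold: Cdhr5 and Shroom3 were called in none, Ezr in 1 and Eps8l2 in 2 of the 6 runs. A shift of this size was not particular to the brush border list. Of 20 enterocyte markers, 5 (25%) were higher and none lower at an unadjusted edgeR p below 0.05, with a median of 0.42. The marker list is not independent of the brush border list, since Cdhr5 is in both, and 17 of its 20 genes belong to the top abundance quintile. The summed enterocyte markers were also higher in all PL8177 than in all placebo libraries.

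Of 38 cell junction genes, 4 were higher and 1 lower at an unadjusted p below 0.05, a share between that of all genes and that of the top abundance quintile, with a median of 0.24; without GR23, 1 was higher and 1 lower. Nectin2, an adherens junction protein, was at 2.86, 2.6 and 3.19 in PL8177, 1.86, 1.33 and 1.3 in placebo and 2.33, 3.32 and 2.88 in sham libraries and was called (log2 fold change 0.93 ± 0.23), as in 1 of the 6 runs. Cdh1, E-cadherin, was at 26.2, 23.4 and 23.7 against 16.8, 13.2 and 18.1 (0.61 ± 0.22, not called). Nectin3, of the same family as Nectin2, was the lower one, at 1.45, 1.59 and 1.39 against 2.14, 2.17 and 2.2 (-0.55 ± 0.25, not called). The libraries of Nectin2, Cdh1 and Nectin3, which were named for a small p, did not overlap between the treatments. Of the 38 genes, 5 were higher and 2 lower without overlap, against 9.04% and 8.14% of all genes. In the top abundance quintile, 20.5% were higher without overlap.

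Of 20 genes of transmembrane mucins and O-glycosylation, 4 (20%) were higher and 2 (10%) lower at an unadjusted p below 0.05, against 5.5% and 3.75% of all genes and 13.5% and 2.07% of the top abundance quintile, to which 9 of the 20 belong. The median of 0.20 was 0.060 without GR44, 0.44 without GR22 (where none was lower) and -0.082 without the library of highest interferon sum of each treatment. Muc13, the most abundant membrane-bound mucin here, was at 32.2, 50.2 and 47.2 in PL8177, 22.6, 22.2 and 22.8 in placebo and 57.3, 115 and 85.2 in sham libraries. The placebo libraries were nearly equal and lowest, the PL8177 libraries between them and sham (log2 fold change 0.94 ± 0.29, DESeq2 adjusted p = 0.0948, not called). Fut2, the fucosyltransferase that makes the H antigen on mucosal glycans, was at 3.55, 2.75 and 2.12 against 1.7, 1.13 and 1.1 and was called, as in 2 of the 6 runs (log2 fold change 1.09 ± 0.28). St3gal4, a sialyltransferase, was at 7.2, 7.25 and 11.7 against 4.15, 5.64 and 2.78 (1.06 ± 0.31), whereas its relative St3gal1, which caps O-glycans, was at 0.316, 0.904 and 0.968 against 1.87, 1.02 and 1.25 (-0.96 ± 0.41); neither was called.

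Of 14 oxidase and antimicrobial defence genes, 3 (21.4%) were higher and none lower at an unadjusted p below 0.05, against 5.5% and 3.75% of all genes. In the top abundance quintile, to which 4 of the 14 belong, the shares were 13.5% and 2.07%. The higher ones were Ceacam1, which is also in this list, Duox2 and Duoxa2. Duox2, the oxidase that releases hydrogen peroxide at the apical membrane, was at 2.41, 2.69 and 2.95 in PL8177 and 0.965, 1.81 and 1.67 in placebo libraries without overlap (0.88 ± 0.27), and Duoxa2, its maturation factor, was at 0.345, 0.17 and 0.0722 against 0.0549, 0.113 and 0.0871 with overlap (1.43 ± 0.52). Neither was called.

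**Figure D4:**
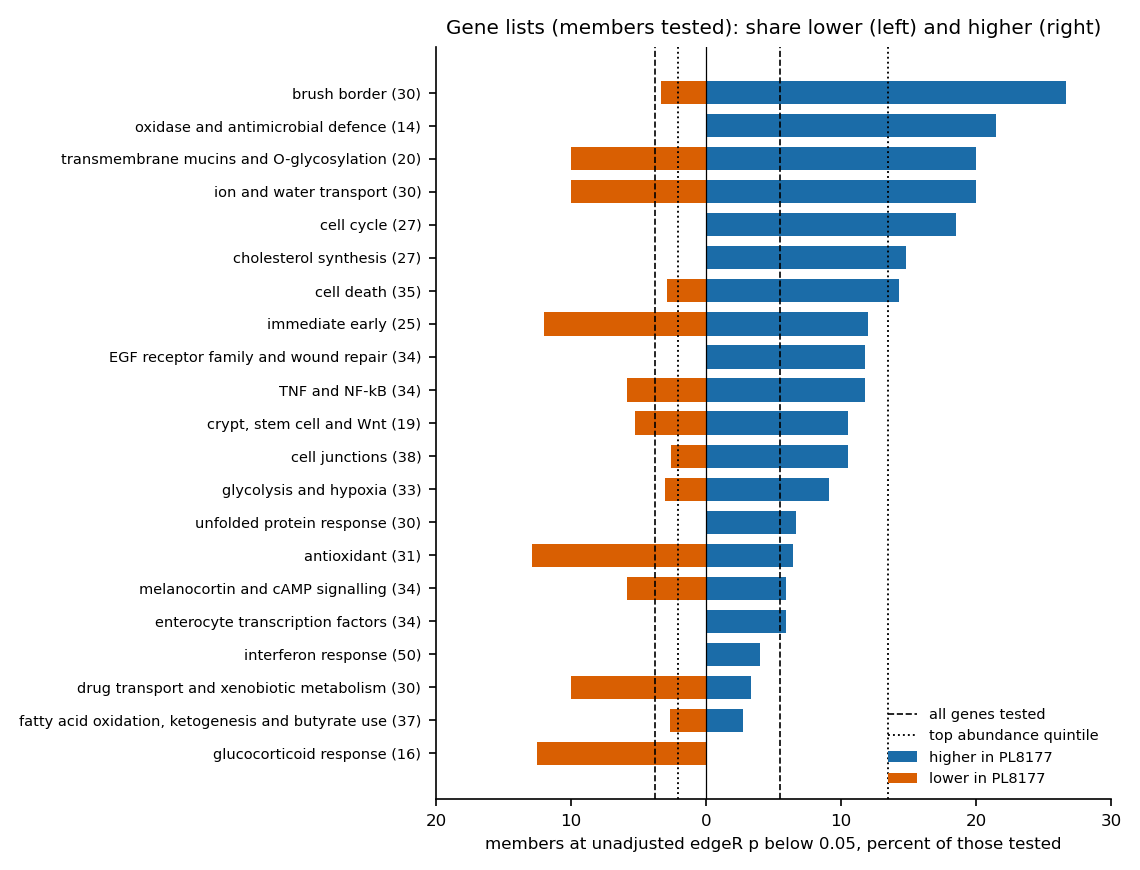
Share of the members tested in each gene list that were higher (right) or lower (left) in PL8177 nuclei at an unadjusted edgeR p below 0.05; the number tested is in brackets, and lists with fewer than 10 members tested are left out. Dashed lines mark all genes (5.5% and 3.75%), dotted lines the top abundance quintile (13.5% and 2.07%); brush border reaches 26.7% on the right.

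In the growth factor and stress lists that follow, at most 1 gene per list and direction was called. Of 34 genes of the EGF receptor family and wound repair, 4 were higher and none lower at an unadjusted p below 0.05 (edgeR; 1 called by DESeq2, none by voom), with a median of 0.34. The share higher was 11.8%, against 5.5% of all genes and 13.5% of the top abundance quintile, to which 20 of the 34 belong. With 1 library left out, the higher ones numbered from 2 without GR23 to 6 without GR22 and 7 without GR44, and the median was 0.14 without GR41, 0.17 without GR22, 0.20 without GR23 and 0.22 without GR44. Areg encodes amphiregulin, a ligand of the EGF receptor in mucosal repair. It was at 2.14, 1.06 and 0.852 in PL8177, 0.497, 0.31 and 0.572 in placebo and 0.658, 0.533 and 0.305 in sham libraries and was called (log2 fold change 1.5 ± 0.38, DESeq2 adjusted p = 0.0401); all 3 PL8177 libraries were above both other groups, and it was called in 1 of the 6 runs. Il22ra1, the epithelial receptor chain for interleukin 22, was at 1.24, 1.22 and 1.16 against 0.881, 0.536 and 0.599 (0.81 ± 0.25, not called). Of 30 genes of the unfolded protein response, 2 (6.67%) were higher and none lower, with a median of -0.01. Without GR22, 4 were higher and 1 lower. Ppp1r15a encodes GADD34, which restores translation after stress, and was at 0.77, 0.501 and 1.16 in PL8177, 0.227, 0.254 and 0.163 in placebo and 0.471, 1.22 and 0.264 in sham libraries (log2 fold change 1.92 ± 0.48, called, and called in 2 of the 6 runs). Herpud1, of the degradation machinery of the endoplasmic reticulum, was at 1.9, 1.89 and 3.64 against 1.05, 1.07 and 1.26 (1.12 ± 0.31, not called).

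Of 25 immediate early genes, 3 were higher and 3 lower at an unadjusted p below 0.05, and 2 to 4 in either direction with 1 library left out. These shares of 12% and 12% stand beside 5.5% and 3.75% of all genes. In the top abundance quintile, to which 11 of the 25 belong, the shares were 13.5% and 2.07%. Dusp5, a nuclear phosphatase of ERK, was higher, at 1.93, 1.78 and 3.62 in PL8177 and 0.96, 1.1 and 0.898 in placebo libraries (log2 fold change 1.31 ± 0.28, DESeq2 adjusted p = 0.0126). Egr1, a transcription factor induced by ERK, was lower, at 0.149, 0.195 and 0.159 in PL8177, 1.3, 0.649 and 0.316 in placebo and 0.521, 0.203 and 0.102 in sham libraries (log2 fold change -2.17 ± 0.55, DESeq2 adjusted p = 0.0243). The placebo libraries of Egr1 spread from 0.316 to 1.30, and its fold change was -1.41 without GR22, the highest of them; Egr1 was called in 1 and Dusp5 in 3 of the 6 runs. Jun, a subunit of the transcription factor AP-1, was at 0.712, 1.31 and 1.57 against 2.19, 2.17 and 2.33 (-0.91 ± 0.31, not called), and Atf3 at 0.35, 0.279 and 0.737 against 1.78, 0.959 and 0.354 with overlap (-1.27 ± 0.51, not called).

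The glucocorticoid response list had 2 lower genes of 16 tested (12.5%) and none higher at an unadjusted edgeR p below 0.05. Of all genes 3.75% were lower, and of the top abundance quintile, to which 3 of the 16 belong, 2.07%. DESeq2 called 1 lower and voom 1 lower. Without 1 library, 2 to 4 were lower (4 without GR43) and up to 2 higher (without GR44). Fkbp5, a co-chaperone of the glucocorticoid receptor that glucocorticoids induce, was at 0.138, 0.133 and 0.0578 in PL8177, 0.418, 0.536 and 0.49 in placebo and 0.0718, 0.101 and 0.0406 in sham libraries. It was 4.39-fold lower in PL8177 nuclei, and the placebo libraries stood far above the other 6 (log2 fold change -2.01 ± 0.35, DESeq2 adjusted p = 0.00212), and it was called in 2 of the 6 runs. Sgk1, a kinase induced by glucocorticoids and by aldosterone that raises sodium channel activity, was at 0.718, 2.51 and 1.53 in PL8177, 4.29, 2.79 and 3.71 in placebo and 2.56, 2.82 and 3.72 in sham libraries. Its PL8177 libraries were below all others, and its sham libraries overlapped those of placebo (-1.18 ± 0.37, not called).

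Of 34 genes of melanocortin and cAMP signalling, 2 were higher and 2 lower at an unadjusted p below 0.05, near the shares of all genes (1 to 4 higher and 1 to 3 lower with 1 library left out, the extremes without GR22 and GR41), and none was called by DESeq2 or voom; the median was 0.11, 0.022 without GR23 and -0.11 with thinned nuclei. Gnai3 and Gnai1 encode inhibitory G protein subunits and went in opposite directions, Gnai3 at 2.31, 2.68 and 2.41 against 1.68, 1.27 and 1.54 (0.71 ± 0.21) and Gnai1 at 0.0459, 0.0716 and 0.0433 against 0.196, 0.169 and 0.103 (-1.44 ± 0.41). Sik3, a kinase that holds CREB coactivators in the cytosol, gave 0.58 ± 0.24, and Crtc1, such a coactivator, gave -1.12 ± 0.39 at levels of at most 0.18.

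Promoters were searched for 11 motifs, of which a part is given here, among them TGACGTCA, the full cAMP response element, which reads the same on both strands. It was in 3.19% of the 7429 promoters of tested genes, in 4 of 32 higher called genes (Areg, Ppp1r15a, Pak1 and Vps37b) and in 0 of 14 lower ones. The shorter TGACG, searched on both strands and contained in the full element, was in 34.1% of all promoters, 9 of the 32 and 3 of the 14. The 4 promoters are shown as the called genes that carry the element of the pathway the drug addresses, each with the 250 bases before the start, RefSeq, GRCr8, the element in capitals. Areg is chr14:17265642-17265891, minus strand; Ppp1r15a is chr1:105139597-105139846, minus strand; Pak1 is chr1:161522200-161522449, plus strand; Vps37b is chr12:38220723-38220972, plus strand.
Areg: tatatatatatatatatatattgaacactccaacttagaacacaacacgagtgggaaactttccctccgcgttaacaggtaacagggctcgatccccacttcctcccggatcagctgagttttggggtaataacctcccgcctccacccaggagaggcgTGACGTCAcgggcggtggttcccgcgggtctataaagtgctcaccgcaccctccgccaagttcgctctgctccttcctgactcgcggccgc
Ppp1r15a: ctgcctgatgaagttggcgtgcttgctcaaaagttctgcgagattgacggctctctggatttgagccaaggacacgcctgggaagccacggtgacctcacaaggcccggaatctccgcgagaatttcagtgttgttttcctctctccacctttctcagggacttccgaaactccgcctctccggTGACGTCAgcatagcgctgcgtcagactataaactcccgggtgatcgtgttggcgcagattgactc
Pak1: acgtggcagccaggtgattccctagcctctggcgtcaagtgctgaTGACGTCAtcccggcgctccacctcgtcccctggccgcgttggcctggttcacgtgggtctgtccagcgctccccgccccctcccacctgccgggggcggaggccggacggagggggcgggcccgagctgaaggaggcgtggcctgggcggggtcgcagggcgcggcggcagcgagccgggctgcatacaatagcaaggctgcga
Vps37b: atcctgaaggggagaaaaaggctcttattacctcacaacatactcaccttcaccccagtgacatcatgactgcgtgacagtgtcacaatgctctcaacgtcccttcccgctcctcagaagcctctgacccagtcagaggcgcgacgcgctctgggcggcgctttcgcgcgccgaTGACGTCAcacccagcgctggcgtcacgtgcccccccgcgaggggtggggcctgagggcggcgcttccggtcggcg
The element starts 91 bases before the start of Areg, 66 before that of Ppp1r15a, 205 before that of Pak1 and 76 before that of Vps37b. Pak1, a kinase of actin dynamics, gave 0.76 ± 0.20, and Vps37b, of the endosomal sorting complex ESCRT-I, 0.83 ± 0.21. TGANTCA, the site of AP-1 on both strands, was in 4.75% of all promoters, 1 of the 32 and 0 of the 14. Matches are a description of these windows and not of binding, and the 4 genes were called in at most 2 of the 6 runs that left out a library.

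The metabolic lists had no called gene by DESeq2 or voom. At an unadjusted edgeR p below 0.05, 5.5% of all genes were higher and 3.75% lower, and 13.5% and 2.07% of the top abundance quintile. The shares were 2.7% and 2.7% for fatty acid oxidation, 14.8% and 0% for cholesterol synthesis and 9.09% and 3.03% for glycolysis and hypoxia. They were 3.33% and 10% for xenobiotic metabolism and 6.45% and 12.9% for antioxidant genes. Of 37 genes of fatty acid oxidation, ketogenesis and butyrate use, 1 was higher and 1 lower at an unadjusted p below 0.05 (4 higher without GR44, none higher and 2 lower without GR43). Slc16a1, the monocarboxylate transporter that takes up butyrate, was at 6, 7.75 and 5.3 in PL8177, 4.38, 3.05 and 4.92 in placebo and 8.96, 7.79 and 8.49 in sham libraries without overlap between PL8177 and placebo (0.62 ± 0.24), and Ppara, which drives fatty acid oxidation genes, was at 0.161, 0.212 and 0.116 against 0.322, 0.762 and 0.196 with overlap (-1.16 ± 0.44). Of 27 cholesterol synthesis genes, 4 were higher and none lower, with a median of 0.38; 1 was higher without GR23 or GR41, 2 without GR24 and 7 without GR43. The summed level of this list was 35, 18 and 17.5 in PL8177 and 19.6, 14.2 and 16.2 in placebo libraries, so that GR41 alone stood above the rest; over the runs that left out a library the median ran from -0.01 without GR41 to 0.64 without GR22. Of 33 glycolysis and hypoxia genes, 3 were higher, among them the hexokinase Hk1 (0.76 ± 0.25) and Hif1a (0.70 ± 0.29), and 1 was lower, Pdk1, which restrains pyruvate oxidation (-1.18 ± 0.37); without GR23 1 was higher, and without GR22 5 were higher and 4 lower. Of 30 genes of drug transport and xenobiotic metabolism, 1 was higher and 3 lower, with a median of -0.29 (1 lower and a median of -0.16 without GR41, 3 higher without GR22); the lower ones were Cyp3a62 (-0.96 ± 0.34) and the acetyltransferases Nat1 (-0.66 ± 0.26) and Nat2 (-0.77 ± 0.35). Of 31 antioxidant genes, 2 were higher and 4 lower, and with 1 library left out the lower ones numbered 0 (without GR41) to 3; Txnrd1, thioredoxin reductase, was at 5.98, 5.2 and 6.07 against 2.89, 2.96 and 4.02 (0.80 ± 0.25), and Nqo1 had levels of at most 0.245.

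Among crypt, stem cell and Wnt genes, 2 of 19 were higher and 1 lower, and the list median was -0.11 (-0.14 without GR43 to 0.02 without GR24). These shares of 10.5% and 5.26% stand beside 5.5% and 3.75% of all genes and 13.5% and 2.07% of the top abundance quintile. The higher ones were the Wnt co-receptors Lrp5, at 3.62, 3.44 and 3.61 against 2.54, 1.69 and 1.94 (0.78 ± 0.21), and Lrp6, at 3.7, 4.24 and 4.03 against 2.81, 2.4 and 2.98 (0.54 ± 0.21), both without overlap and neither called. Of the 19 genes, 3 were higher and 1 lower without overlap, against 9.04% and 8.14% of all genes. Of 27 cell cycle genes, 5 were higher and none lower at an unadjusted p below 0.05 (none called by DESeq2 or voom), at low levels: the whole list summed to 5.83, 4.51 and 3.84 in PL8177 and 3.37, 5.61 and 3.56 in placebo libraries. The share of cell cycle genes that were higher was 18.5%, against 5.5% of all genes, and none of them belongs to the top abundance quintile. The higher ones numbered 1 without GR22 or GR24, 2 without GR41, 3 without GR43 and 8 without GR23. Kif11, a mitotic kinesin, was at 0.0919, 0.0889 and 0.101 against 0.0167, 0 and 0.0272. With nuclei thinned to 300 UMIs, 4 members could be tested and none was below 0.05. Of 34 enterocyte transcription factors and differentiation signals, 2 were higher, Creb3l1 (1.11 ± 0.36) and the surface morphogen Bmp2 (0.74 ± 0.32), and none lower. Neither was called by DESeq2 or voom, and with 1 library left out 1 or 2 were higher and at most 1 lower. The share higher, 5.88%, was near the 5.5% of all genes.

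Of 34 TNF and NF-kB genes, 4 were higher and 2 lower, but 1 was higher without GR41 and 1 without GR22. These shares of 11.8% and 5.88% stand beside 5.5% and 3.75% of all genes. In the top abundance quintile, to which 8 of the 34 belong, the shares were 13.5% and 2.07%. Tnfrsf1a, the TNF receptor, was at 0.517, 0.42 and 0.491 in PL8177 and 0.301, 0.0846 and 0.0926 in placebo libraries (1.38 ± 0.41), and Nfkbiz, an atypical inhibitor of NF-kB, at 2.19, 1.73 and 2.07 against 0.772, 1.13 and 1.61 (0.77 ± 0.29). The kinases Ikbke, at 0.218, 0.346 and 0.202 against 0.466, 0.705 and 0.452 (-0.98 ± 0.30), and Ripk2, at 0.0459, 0.114 and 0.0867 against 0.229, 0.197 and 0.218 (-1.36 ± 0.42), were the lower ones. None of these 4 genes was called. None had libraries that overlapped, but they were named for a small p, so that separation is no result about them. Of the 34 genes, 5 were higher and 3 lower without overlap, against 9.04% and 8.14% of all genes. Of 35 cell death genes, 5 were higher and 1 lower (4 to 7 and 0 to 2 with 1 library left out). These shares of 14.3% and 2.86% were near the 13.5% and 2.07% of the top abundance quintile, to which 11 of the 35 belong. Pmaip1, the death-promoting BH3-only protein NOXA, was at 1.23, 1.97 and 1.96 in PL8177, 0.478, 0.564 and 0.773 in placebo and 1.21, 2.33 and 1.3 in sham libraries and was called (log2 fold change 1.5 ± 0.32, DESeq2 adjusted p = 0.00945), as in 4 of the 6 runs. Casp4, an inflammatory caspase, was at 0.896, 0.625 and 0.635 against 0.315, 0.282 and 0.338 (1.19 ± 0.29), and Apaf1, the scaffold of the apoptosome, at 3.51, 4.16 and 4.43 against 1.95, 2.59 and 1.45 (1.03 ± 0.28). Bcl2l11, the BH3-only protein BIM, was lower, at 0.408, 0.299 and 0.419 against 0.554, 0.479 and 1.14 (-1.01 ± 0.36); the last 3 were not called.

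In the interferon response list, 1 library of each treatment stood apart. Its genes summed to 30.8, 40 and 117 in PL8177, 30.2, 93.4 and 44.6 in placebo and 41.5, 146 and 51 in sham libraries, with GR44, GR23 and GR13 as the high ones. Of 50 members tested, 2 (4%) were higher and none lower at an unadjusted p below 0.05, against 5.5% and 3.75% of all genes. None was called by DESeq2 or voom. The higher ones were Stat3 (0.52 ± 0.23) and Trim25 (0.85 ± 0.38). The list median of 0.21 ran from -0.84 without GR44 to 0.90 without GR23, with 3 lower and 4 higher genes in these runs.

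**Figure D5:**
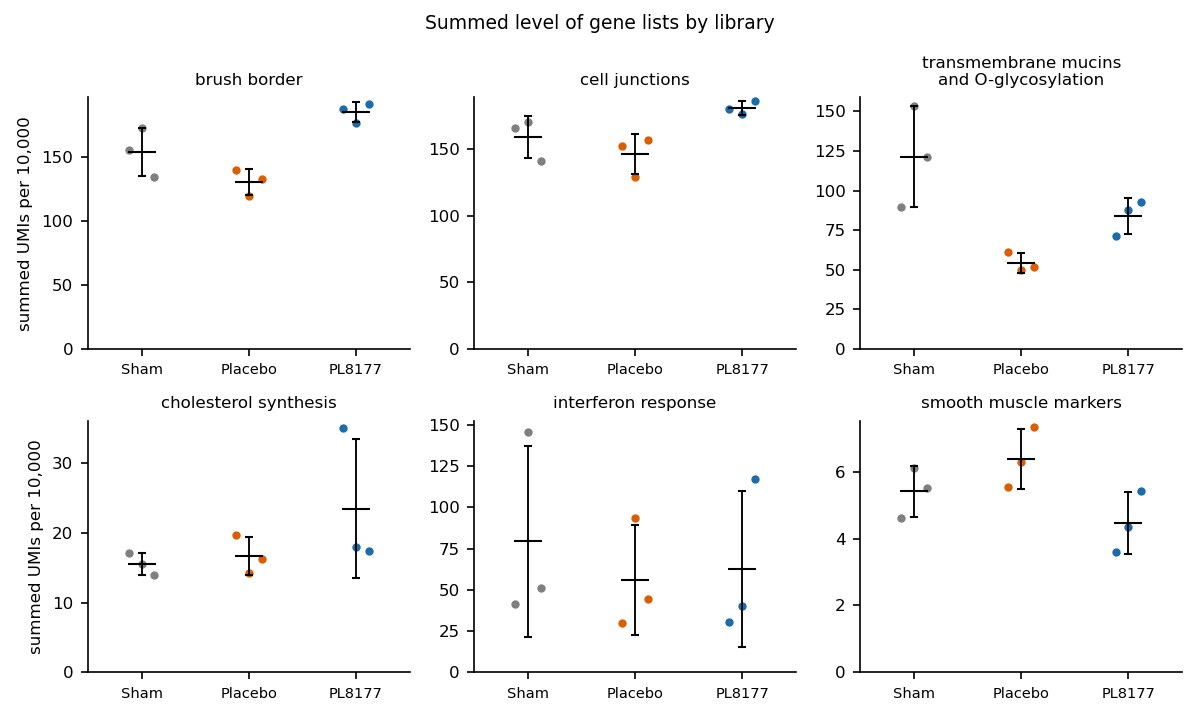
Summed level of 6 gene lists in UMIs per 10000 on linear axes from 0; points are the 3 libraries of each treatment, bars the mean ± SD. Brush border, cell junction and mucin sums are higher in all PL8177 than in all placebo libraries, cholesterol synthesis is high in 1 PL8177 library, and interferon response in 1 library of each treatment. Some sums not drawn are also higher in all PL8177 libraries, among them keratins, enterocyte transcription factors, EGF receptor family and wound repair. Another is the unfolded protein response, whose median log2 fold change was -0.01. Muc13 is 47.7% of the mucin sum. The smooth muscle sum, of which Mylk is 70.4%, is lower in all PL8177 than in all placebo libraries.

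The study lists 32 genes as higher in the enterocytes of both PL8177 and sham rats than in those of placebo rats, of which 30 were matched and tested. The names read as Esy1 and Lntimer matched no gene. The similarly named Esyt1 is not counted among the 30. It was at 7.64, 7.83 and 9.76 in PL8177 and 4.33, 5.02 and 4.39 in placebo libraries (log2 fold change 0.88 ± 0.22). Esyt1 was called (DESeq2 adjusted p = 0.037), but in none of the 6 runs. Of the 30, 21 were higher and none lower at an unadjusted edgeR p below 0.05, 11 were called by DESeq2, and their median was 1.03. The list was chosen on the same nuclei, and being higher in PL8177 was a condition of entry, so these counts are not independent evidence of its direction. Without overlap between the treatments were Tmprss2, an apical serine protease, at 47.4, 37.8 and 55.3 in PL8177 and 21.9, 33.3 and 31.3 in placebo libraries (log2 fold change 0.70 ± 0.26), Plac8 at 11.1, 6.18 and 9.56 against 5.21, 4.23 and 3.32 (log2 fold change 1.07 ± 0.27, called) and the phospholipase C Plcd3 at 3.14, 2.33 and 2.64 against 1.11, 1.21 and 0.975 (log2 fold change 1.31 ± 0.32, called); Plac8 was called in 2 and Plcd3 in none of the 6 runs. Others rested on 1 library: AABR07000398.1 was at 26.7, 41.1 and 271 in PL8177 and 31.3, 48.8 and 71.1 in placebo libraries (1.17 ± 0.85), which became -0.56 without GR44, and RT1-CE10, a class I histocompatibility gene whose reads can be shared with near-identical copies, was at 1.81, 3.12 and 13.2 against 2.08, 2.23 and 3.91 (1.12 ± 0.59), which became -0.15 without GR44. Gpx2, a glutathione peroxidase of the gut epithelium, was at 17.5, 7.35 and 32.8 against 5.25, 14.9 and 8.39 with overlap (1.02 ± 0.56).

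Of the 4 keratin genes tested, none was below an unadjusted p of 0.05 in edgeR, and none was called by DESeq2 or voom. Krt20, a keratin of mature surface cells, was at 16.1, 13.8 and 35.2 in PL8177, 11, 11.6 and 10.2 in placebo and 14.4, 92.6 and 23.4 in sham libraries (0.99 ± 0.57); the PL8177 libraries lay above those of placebo, and without GR44 the fold change was 0.47. Krt18 was at most 0.0988 in any of these 6 libraries (-0.22 ± 0.59), so no direction can be given for it.

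Some markers of other cell types were lower in PL8177 than in placebo libraries. Smooth muscle markers summed to 3.6, 4.35 and 5.43 in PL8177 and 5.55, 6.29 and 7.32 in placebo libraries, and T cell markers to 0.23, 0.368 and 0.173 and 0.377, 0.79 and 0.621, in both lists lower in all PL8177 libraries. Each sum was mostly 1 gene over the 6 libraries, Mylk with 70.4% of the smooth muscle UMIs and Bcl11b with 71.1% of the T cell UMIs. The smooth muscle genes Myh11, Tagln and Actg2 and the T cell genes Ptprc and Skap1 overlapped between the treatments. Without overlap, and lower, were 2 of the 8 smooth muscle and 1 of the 3 T cell markers tested, against 8.14% of all genes. Lists this short cannot show whether their counts exceed the share of all genes. B and plasma cell markers summed to 0.0804, 0.0815 and 0.144 and 0.0669, 0.479 and 0.305, with the markers Jchain, Mzb1 and Irf4 at 0 UMIs in the 6 libraries, as were the T cell marker Cd2 and the myeloid markers Adgre1 and Itgax. Of 8 smooth muscle markers tested, 1 was lower at an unadjusted p below 0.05, the myosin light chain kinase gene Mylk (-0.63 ± 0.24), and none of the 3 T cell markers was. Of all genes, 3.75% were lower at this edgeR p. The smooth muscle count was 0 without GR41, GR43 or GR24 and 2 without GR44 or GR22, and the list median of -0.25 was 0.073 without GR41. Of 2 B and plasma cell markers tested, Ighm, the immunoglobulin heavy chain, was lower, at 0.0287, 0.0272 and 0.0289 against 0.0382, 0.254 and 0.0871 without overlap (-1.72 ± 0.69), and Ebf1 gave -0.72 ± 0.63; the median of these 2 was -1.22, below that of smooth muscle and of T cell markers (-0.85). The part of these cells in the results above was not tested. Leaving out the 8 PL8177 and 17 placebo nuclei with more UMIs of another marker list than of enterocyte markers left the edgeR calls at 0 and the genes higher and lower at an unadjusted p below 0.05 at 514 and 347.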

How the data were processed

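Single nuclei libraries of rat colon were counted by the authors with Cell Ranger 6.0.1, introns included, on Rnor 6.0; they removed background with CellBender, kept nuclei with at least 200 genes and labelled cell types in Seurat 4.0.3. The deposited enterocyte values are whole UMI counts per gene and nucleus; whether integration touched them is not stated. A 3′ kit with introns counted gives a level that can move with the length of a transcript's introns and with internal priming, so levels are compared between libraries and not between genes.

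Counts were summed per library tag and tested with edgeR 4.0.16 (TMM, filterByExpr, quasi-likelihood, all 9 libraries in 1 fit, Benjamini-Hochberg adjustment over all 9424 genes tested); DESeq2 1.42.0 and limma 3.58.1 in R 4.3.3 were alternatives. DESeq2 set the adjusted p of 3657 genes to missing, and these count as not called. Further alternatives were RLE size factors, no filter, 6 libraries, each library left out, nuclei with at least 500 genes, nuclei thinned to 300 UMIs (207 PL8177 and 103 placebo nuclei were shallower and left out), nuclei with foreign markers left out, and doublets left out, which Scrublet in scanpy 1.11.5 called for 17 PL8177 and 26 placebo nuclei and which the reported values keep. The scripts were tested on simulated data. Members, the 35 lists and the rule for named genes were chosen with earlier results of these data known. Named are the 15 genes per direction with the smallest p among those with an absolute log2 fold change above 0.5 and no overlap, called list members, up to 3 list members per direction below an unadjusted p of 0.05, genes of the study's list and marker genes; some of these are not reported here. RefSeq promoters (GRCr8) were matched by symbol or synonym.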

Additional observations from a re-analysis of the deposited data

How the results depend on the processing

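No paired analysis was possible because neither the labels nor the nucleus names carry replicate numbers that join rats across treatments. With edgeR, the count of called genes was 0 under every alternative that kept its filter, and 8 of 16533 genes without a filter on low counts; DESeq2 called 63 and limma voom 8, and DESeq2 without 1 library called 11 to 52. The count at an unadjusted p below 0.05 was 1340 with voom, 443 with nuclei thinned to 300 UMIs, and 530 (without GR24) to 1049 with 1 library left out. Genes without overlap between PL8177 and placebo numbered 859 with thinned nuclei, 4173 without the library of highest interferon sum of each treatment, an alternative chosen after seeing the data, and 1581 to 2912 with 1 library left out; fewer libraries overlap less by construction, so the rise says nothing of the genes.

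Medians of lists moved by more than the spread between libraries in these cases. With thinned nuclei, ion and water transport was 0.37, keratins 0.62, glycolysis and hypoxia 0.34, oxidase and antimicrobial defence 0.40, antioxidant genes 0.18, melanocortin and cAMP signalling -0.11 and xenobiotic metabolism 0.022. With voom, oxidase and antimicrobial defence was 0.12, EGF receptor family and wound repair 0.045 and xenobiotic metabolism 0.028, which was -0.52 without a filter. Cell junctions were 0.18 in nuclei with at least 500 genes, MHC class II -0.88 in a fit of the 6 libraries, and oxidase and antimicrobial defence 0.13 without nuclei with more UMIs of other markers. Without the libraries of highest interferon sum, mucins and O-glycosylation were -0.082, cell junctions 0.14, MHC class II -1.78, oxidase and antimicrobial defence -0.033, antioxidant genes -0.31, the unfolded protein response 0.16 and immediate early genes 0.075. With 1 library left out, medians ran 0.054 to 0.34 for ion and water transport, 0.060 to 0.44 for mucins and O-glycosylation, 0.15 to 0.28 for cell junctions, -0.024 to 0.54 for keratins, 0.033 to 0.28 for fatty acid oxidation, 0.014 to 0.27 for glycolysis and hypoxia, 0.060 to 0.36 for oxidase and antimicrobial defence, 0.077 to 0.48 for immediate early genes and -0.44 to -0.16 for xenobiotic metabolism. Moves smaller than the spread between libraries, but over 1.5 times or across 0, gave ranges of 0.14 to 0.35 for the EGF receptor family and wound repair, 0.12 to 0.53 for the cell cycle, 0.094 to 0.28 for TNF and NF-kB and -0.11 to 0.30 for cell death. The brush border median moved by less than that spread under every alternative (0.31 to 0.46 with 1 library left out). The cause of these moves was not tested.

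Of 119 named genes tested, 44 passed the thresholds with DESeq2, 8 with voom and 7 without a filter. The sign turned for 3 genes, none of them called. AABR07000398.1 ran from -0.56 (without GR44) to 1.63 with 1 library left out and was -0.59 without the libraries of highest interferon sum. RT1-CE10 ran from -0.15 (without GR44) to 1.56 and was -0.26. Krt18 ran from -1.30 to 0.038 (without GR44) and was 0.10 with voom. With 3 libraries a treatment and 1 placebo library of 319125 UMIs, genes of low level are the least certain.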

Other observations

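Of the 63 genes called by DESeq2, a further few belong to no list above and are named here after their values were seen. Slc8a1, a sodium and calcium exchanger of the plasma membrane, was at 1.5, 1.55 and 1.59 in PL8177, 4.24, 1.66 and 4.33 in placebo and 2.01, 2.26 and 2.09 in sham libraries (log2 fold change -1.16 ± 0.30, DESeq2 adjusted p = 0.0401). Fut9, a fucosyltransferase that makes the Lewis x antigen, was also lower in PL8177, at 5.58, 3.96 and 1.99 against 12.1, 8.63 and 8, with sham at 6.63, 3.4 and 3.07 (log2 fold change -1.31 ± 0.38, DESeq2 adjusted p = 0.049), while Fut2 of the same enzyme family was higher. Bcl9l, a coactivator of beta-catenin, was higher, at 0.666, 0.647 and 1.11 against 0.344, 0.451 and 0.261, with sham at 0.696, 0.736 and 0.548 (log2 fold change 1.24 ± 0.30, DESeq2 adjusted p = 0.049). Igf2bp2, an RNA-binding protein, was at 2.96, 3.18 and 3 against 1.95, 1.86 and 1.44, with sham at 3.15, 2.92 and 2.64 (log2 fold change 0.80 ± 0.21, DESeq2 adjusted p = 0.049). In each of these 4 genes the PL8177 and placebo libraries did not overlap; Slc8a1, Fut9 and Bcl9l were called in 1 and Igf2bp2 in none of the 6 runs that left out a library.

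The remaining lists overlapped between PL8177 and placebo. Goblet cell markers summed to 2.27, 2 and 4.1 in PL8177 and 1.52, 1.69 and 4.34 in placebo libraries, tuft cell markers to 0.172, 0.237 and 0.361 and 0.208, 0.564 and 0.348, and enteroendocrine cell markers to 0.304, 0.568 and 0.751 and 0.506, 0.649 and 0.387. Myeloid cell markers summed to 0.477, 0.919 and 1.53 and 0.339, 1.52 and 0.882, fibroblast markers to 0.396, 0.44 and 0.549 and 0.392, 0.762 and 0.544, and endothelial cell markers to 0.195, 0.289 and 0.332 and 0.279, 0.733 and 0.414. MHC class II genes summed to 1.08, 1.18 and 2.59 and 1.12, 2.85 and 1.27, mostly the protease gene Ctss, and homeobox genes of colon position to 0.637, 0.968 and 0.607 and 0.841, 1.1 and 0.828.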
